A study of Homo sapiens with 6 samples.

Results

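NF-kappaB is a family of transcription factors built from 5 subunits, and several of its inhibitors are themselves encoded by NF-kappaB target genes. The expression of these subunits and feedback inhibitors was compared between BT474 cells that carried the long or the short transcript of the long noncoding RNA NR2F1-AS1 and their empty-vector control. The set was chosen by name, with earlier results of these data known. It held 10 genes, namely the subunits NFKB1, NFKB2, RELA, RELB and REL and the inhibitors NFKBIA, NFKBIE, NFKBIZ, TNFAIP3 and BIRC3. Every array probe annotated to one of these names was taken and kept apart, which gave 11 probes (RELA had 2) of 58201 probes under 43317 gene names on the array.

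The study asked what NR2F1-AS1 does in recurrent estrogen receptor-positive breast cancer and profiled total RNA on 6 Agilent 1-colour microarrays. BT474 is an established human breast cancer cell line that is positive for the estrogen receptor and for HER2. The 3 groups of 2 arrays each (A and B) were Control (labelled MOCK), BT474-Var1 and BT474-Var4. According to the methods, BT474-Var1 cells received the long variant 1 in pcDNA3.1/Hygro(+) and BT474-Var4 cells the short variant 4 in pcDNA3.1-P2A-eGFP, both by nucleofection. All the groups went through plasmid delivery and antibiotic selection, the backbones of the variants differed, and which empty plasmid the Control arrays represent was not stated. The paper reports that the variant cultures shrank to few cells before colonies appeared, and its discussion raises a clonal selection. The part of such a selection in the differences from Control was not tested. Nothing in the labels says that A and B were separate cultures, so the p-values measure the spread between these arrays, which may be technical.

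In resting cells, IkappaB proteins such as NFKBIA hold NF-kappaB dimers in the cytoplasm. In the canonical pathway, receptors for TNF, interleukin 1 or microbial products activate the IkappaB kinase complex, the inhibitor is degraded, and dimers that contain RELA or REL with the p50 product of NFKB1 enter the nucleus. The non-canonical pathway runs through the kinase NIK (MAP3K14), which leads to processing of the NFKB2 precursor into p52, the usual partner of RELB. NFKBIA, TNFAIP3 (A20) and BIRC3 (cIAP2) are classical targets of the pathway that feed back on it.

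The regulatory sequence in front of these genes was examined first. RefSeq start sites on GRCh38.p14 were listed for 8 of the 10 genes (13 starts), and the 250 bases before each start were searched on both strands for the kappaB consensus. At least 1 match was found before 9 of the 13 starts, in 7 of the 8 genes. Among all 35116 listed promoters of the same length 9.96% held one, and 11.8% of the 27305 genes did. Neither RELA start had a match in this window. The windows of 4 genes are shown, 3 whose expression was higher in both variants (TNFAIP3, BIRC3 and NFKBIA) and 1 whose expression was lower in BT474-Var1 (NFKB1), each written along the gene's strand and ending at the base before the start, with the consensus matches in capitals.
TNFAIP3, GRCh38.p14 chr6:137867009-137867258, plus strand: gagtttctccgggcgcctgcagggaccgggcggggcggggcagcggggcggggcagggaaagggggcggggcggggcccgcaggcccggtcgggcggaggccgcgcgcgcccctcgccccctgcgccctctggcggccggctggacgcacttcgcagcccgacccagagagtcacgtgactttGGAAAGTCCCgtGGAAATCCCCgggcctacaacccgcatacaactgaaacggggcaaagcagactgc
BIRC3, GRCh38.p14 chr11:102317234-102317483, plus strand: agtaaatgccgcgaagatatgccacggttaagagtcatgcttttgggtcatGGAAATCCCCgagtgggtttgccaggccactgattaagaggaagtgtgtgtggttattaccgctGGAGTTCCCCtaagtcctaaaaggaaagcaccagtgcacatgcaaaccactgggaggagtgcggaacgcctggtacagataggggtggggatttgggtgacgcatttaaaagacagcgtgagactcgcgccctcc
NFKBIA, GRCh38.p14 chr14:35404750-35404999, minus strand: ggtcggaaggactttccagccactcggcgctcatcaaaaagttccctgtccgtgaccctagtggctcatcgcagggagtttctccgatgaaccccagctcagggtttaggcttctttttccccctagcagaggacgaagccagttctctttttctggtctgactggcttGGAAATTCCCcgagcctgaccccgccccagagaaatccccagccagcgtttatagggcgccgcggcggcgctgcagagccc
NFKB1, GRCh38.p14 chr4:102501109-102501358, plus strand: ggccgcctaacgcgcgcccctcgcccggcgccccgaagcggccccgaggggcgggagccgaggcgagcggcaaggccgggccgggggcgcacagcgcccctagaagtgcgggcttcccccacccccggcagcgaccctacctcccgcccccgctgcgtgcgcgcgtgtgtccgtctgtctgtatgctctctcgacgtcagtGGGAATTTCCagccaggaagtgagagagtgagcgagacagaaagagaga
The TNFAIP3 matches lay at -67 to -58 and -55 to -46 from the start, those of BIRC3 at -199 to -190 and -135 to -126, and the single matches of NFKBIA and NFKB1 at -81 to -72 and -49 to -40. NFKB1 had another listed start (window chr4:102501684-102501933), which held no match. NFKB2 held matches before 2 of its 3 listed starts. REL and NFKBIZ held matches as well, so the motif was present both before genes that were higher and before genes that were not. A match is a stretch of letters and was not measured as a binding site.

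On each array, 47.6% to 57.5% of the probes were well above background, no spot was saturated, and the replicate arrays of a group had a Pearson correlation of 0.980 to 0.987 across probes. The transfected transcript followed the labels. Both NR2F1-AS1 probes annotated to variant 1 were well above background on the 2 BT474-Var1 arrays and on no BT474-Var4 array, and the probe annotated to variant 4 on the 2 BT474-Var4 arrays and on no BT474-Var1 array. One of the variant 1 probes and the variant 4 probe were also well above background on 1 Control array each. The remaining probe, annotated to variant 6, was so on all 4 variant arrays and 1 Control array. All 10 luminal epithelial markers checked were well above background on every array. By limma at an adjusted p under 0.05, 3 were higher and 3 lower in BT474-Var1 (60%). In BT474-Var4, 3 were lower and 0 higher (30%). Between the variants, 2 were higher and 6 lower in BT474-Var4 (80%). Over all genes with 1 probe each, the shares called were 34.9%, 24.8% and 42%. Against Control, EPCAM went from a mean log2 level of 6.51 to 5.85 and KRT19 from 9.88 to 10.50 in BT474-Var1. ESR1 went from 2.15 to 1.68 in BT474-Var4. The BT474-Var4 calls of ESR1, FOXA1 and SPDEF were lost without either Control array or either BT474-Var4 array. In BT474-Var1 the EPCAM call was lost without Control A, while the KRT19 call was not lost without any one array. Of 11 markers of leukocytes, fibroblasts and endothelium, 6 were well above background on all arrays and 2 (COL1A2 and COL3A1) on none. Their summed intensity, not scaled to the array's 75th percentile, was 749 and 761 in Control, 673 and 676 in BT474-Var1 and 998 and 1019 in BT474-Var4. The log2 75th percentile was 6.76 and 6.72 in Control, 6.63 and 6.62 in BT474-Var1, and 6.80 and 6.84 in BT474-Var4. The sums therefore also carry differences in array scale. Of the 7 markers tested, COL1A1 was higher (0.34) and VWF lower (-0.87, on the log2 scale) in BT474-Var1. This COL1A1 call was lost without either Control array or either BT474-Var1 array, and the VWF call without none. In BT474-Var4 COL1A1 was higher (1.03) while the other 6 did not pass the test, with a list median of -0.08. The part of these genes in the results below was not tested. In bulk RNA, a change in the number of expressing cells and a change in RNA per cell cannot be told apart.

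Compared with Control, 5 members were higher in both variant lines, namely RELB, NFKB2, TNFAIP3, BIRC3 and NFKBIA, while RELA did not pass the test in either. All values are log2 processed intensities relative to the array's 75th percentile, and a probe was called when its limma adjusted p was under 0.05. In BT474-Var1, 6 of the 11 probes were called, 5 higher and 1 lower, where 34.4% of the 31806 tested probes were called (14.1% higher and 20.4% lower). In BT474-Var4, 7 of 11 were called, 6 higher and 1 lower, where 24.2% of the tested probes were called (9.87% higher and 14.3% lower). With a further minimum of 2-fold, 4 members were called in BT474-Var1 and 3 in BT474-Var4, all higher, against 2.77% and 1.59% of the tested probes called higher by that rule. Both comparisons share the Control arrays. All 11 probes were well above background on all 6 arrays, so none entered the test through 1 group alone. The median log2 fold change over the 11 probes was 0.12 in BT474-Var1 and 0.41 in BT474-Var4, beside -0.04 and -0.08 over all tested probes. The arrays of the 2 groups did not overlap for 10 of the 11 probes in each comparison, but this held for 71.8% and 68.7% of all tested probes, so an absence of overlap alone says little with 2 arrays a group.

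**Figure D1:**
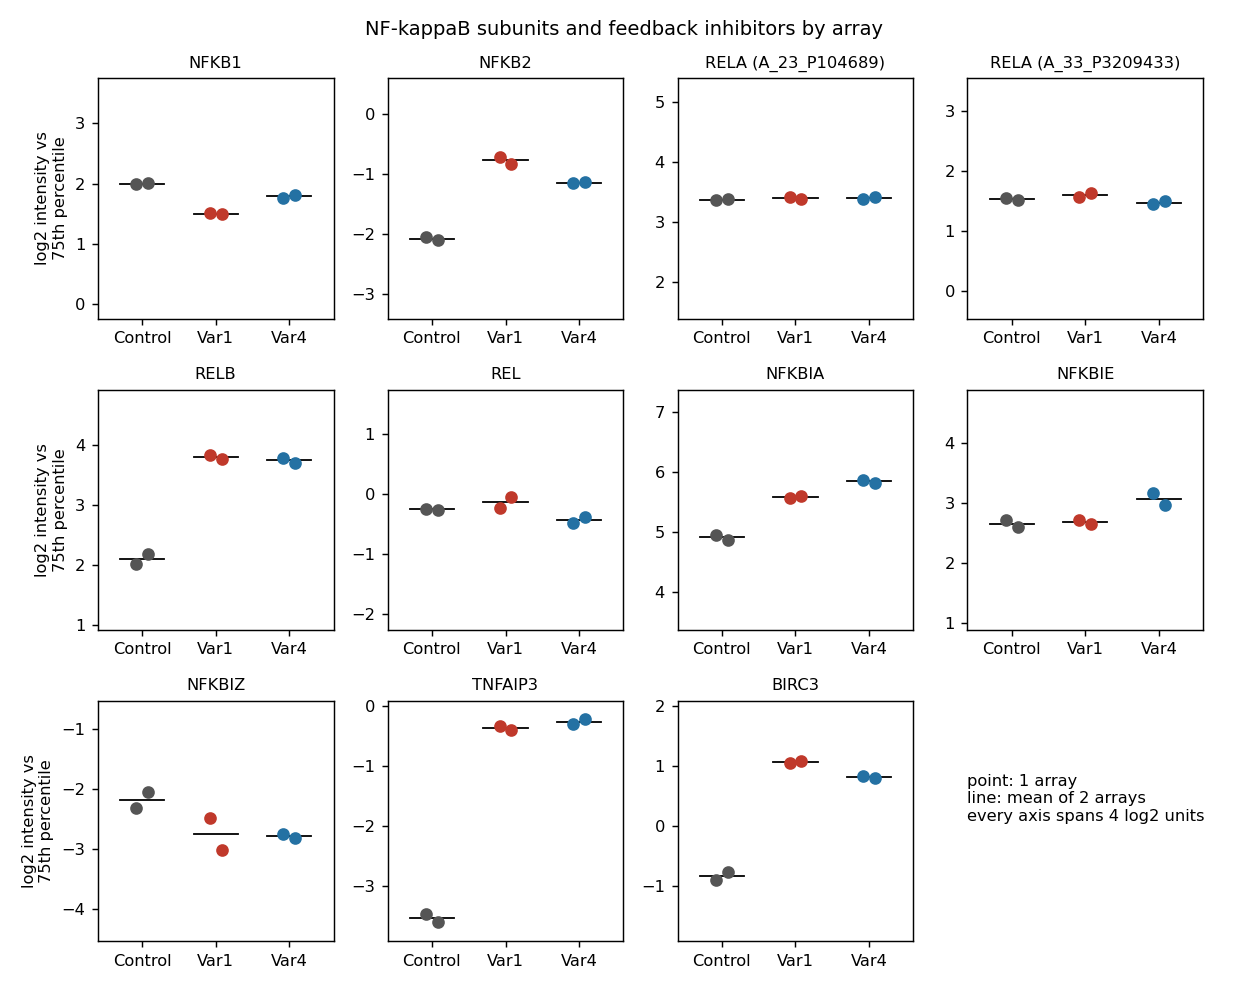
Log2 intensity relative to the array's 75th percentile for each of the 11 member probes, by group; each point is 1 array and each line the mean of 2 arrays. RELB, NFKB2, TNFAIP3, BIRC3 and NFKBIA were higher on all 4 variant arrays than on both Control arrays, NFKB1 was lower on all 4, and the RELA points stayed within narrow ranges.

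Among the subunits, the 2 that form the non-canonical dimer were the ones that rose. The arrays measured RNA, so neither processing of the NFKB2 precursor nor the activity of either pathway was measured. RELB (A_23_P55706, chr19:45541385-45541444 on hg19, plus strand) was at 2.01 and 2.19 in Control, 3.83 and 3.76 in BT474-Var1, and 3.79 and 3.70 in BT474-Var4. The 4 variant arrays lay close together and far above both Control arrays. The difference from Control was 1.69 (SE 0.08, adjusted p = 0.0029), or 3.23-fold, in BT474-Var1 and 1.64 (SE 0.08, adjusted p = 0.0031), or 3.13-fold, in BT474-Var4. The NFKB2 probe (A_23_P202156), placed on the plus strand at chr10:104161053-104161229 on hg19, a span longer than the 60 bases of most probes, read -2.05 and -2.09 in Control, -0.71 and -0.83 in BT474-Var1, and -1.15 and -1.12 in BT474-Var4. NFKB2 encodes the p100 precursor, and its 3 groups were separate, with Control lowest and BT474-Var1 highest. With variant 1 it rose by 1.30 (SE 0.06, adjusted p = 0.0028), or 2.46-fold, and by 0.93 (SE 0.06, adjusted p = 0.0041), or 1.91-fold, in BT474-Var4. Both genes were called under all 15 alternatives in both comparisons. With a normexp background correction the NFKB2 difference was 0.59 and 0.37.

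The canonical subunits gave a different picture. NFKB1 (A_23_P30024, chr4:103537856-103537915 on hg19, plus strand), which encodes p105 and p50, was at 1.994 and 2.002 in Control, 1.502 and 1.499 in BT474-Var1, and 1.76 and 1.81 in BT474-Var4. It was thus highest in Control and lowest in BT474-Var1, with no overlap. It fell by 0.50 (SE 0.05, adjusted p = 0.0055) in BT474-Var1, where the call was lost without Control A (adjusted p = 0.0511) and with no filter on dim probes (0.0509). In BT474-Var4 the difference of -0.21 (SE 0.05, adjusted p = 0.0440) was called under 5 of 15 alternatives and was lost without any one of the 6 arrays (adjusted p 0.0878 to 0.175).

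RELA, the main transactivating subunit of the canonical pathway, was measured by probes A_23_P104689 (chr11:65421651-65421710 on hg19) and A_33_P3209433 (chr11:65421986-65422045), both on the minus strand. The first probe ranged from 3.36 to 3.43 over the 6 arrays and the second from 1.45 to 1.63. Neither was called in any comparison with Control. For the first probe the 95% interval of the difference was -0.11 to 0.17 in both comparisons, and for the second -0.07 to 0.21 in BT474-Var1 and -0.20 to 0.08 in BT474-Var4. REL (A_23_P56938, chr2:61149596-61149655 on hg19, plus strand), the subunit best known from lymphoid cells, was at -0.26 on both Control arrays, -0.24 and -0.05 in BT474-Var1, and -0.48 and -0.38 in BT474-Var4. The differences of 0.12 (adjusted p = 0.352) and -0.17 (adjusted p = 0.218) did not pass the test.

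**Figure D2:**
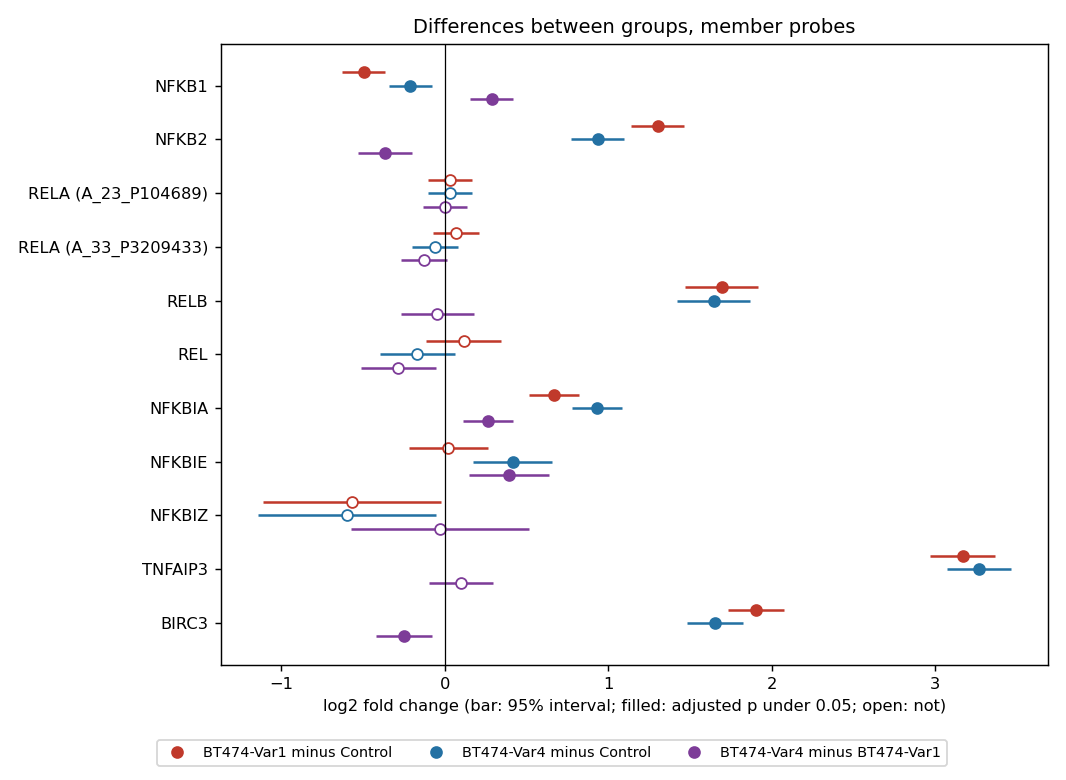
Log2 fold change (x axis) of each member probe (y axis) in the 3 comparisons, with bars for the 95% interval and filled points for adjusted p under 0.05. TNFAIP3, BIRC3, RELB, NFKB2 and NFKBIA lie to the right of 0 against Control in both variants, and TNFAIP3 is farthest at 3.17 and 3.27.

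The feedback inhibitors TNFAIP3 and BIRC3 gave the largest differences among the members, although BIRC3 and RELB were level in BT474-Var4 (1.65 and 1.64) and RELB came first with normexp (1.57 and 1.55). TNFAIP3, a ubiquitin-editing enzyme that shuts off signalling from TNF and Toll-like receptors (A_24_P157926, chr6:138203679-138203738 on hg19, plus strand), was at -3.46 and -3.60 in Control, -0.33 and -0.39 in BT474-Var1, and -0.30 and -0.22 in BT474-Var4. As intensities these were 9.83 and 8.72 in Control, 78.49 and 74.96 in BT474-Var1, and 90.16 and 97.90 in BT474-Var4. Both Control arrays were dim but well above background, and the 4 variant arrays were alike. The difference was 3.17 (SE 0.07, adjusted p = 0.0015), or 8.98-fold, in BT474-Var1 and 3.27 (SE 0.07, adjusted p = 0.0020), or 9.62-fold, in BT474-Var4. It was called under all 15 alternatives. Its size depended on the background correction, since normexp with an offset of 50, which exceeds the Control intensity, gave 1.16 and 1.21.

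BIRC3 (A_23_P98350, chr11:102208356-102208415 on hg19, plus strand), an inhibitor of apoptosis that takes part in the degradation of NIK, was at -0.91 and -0.78 in Control, 1.05 and 1.07 in BT474-Var1, and 0.82 and 0.79 in BT474-Var4. The 3 groups did not overlap and Control was lowest. With variant 1 BIRC3 rose by 1.90 (SE 0.06, adjusted p = 0.0023), or 3.74-fold, and by 1.65 (SE 0.06, adjusted p = 0.0024), or 3.14-fold, in BT474-Var4. With normexp the differences were 1.26 and 1.08, and all 15 alternatives called both.

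NFKBIA, the IkappaB protein that retains RELA in the cytoplasm, was printed as 10 spots of 1 probe (A_23_P106002, chr14:35870788-35870847 on hg19, minus strand). After outlier spots were left out, 7 or 8 of the spots were used on each array. NFKBIA was at 4.95 and 4.87 in Control, 5.56 and 5.59 in BT474-Var1, and 5.87 and 5.81 in BT474-Var4. Control was lowest and BT474-Var4 highest. With variant 1 NFKBIA rose by 0.67 (SE 0.06, adjusted p = 0.0047), or 1.59-fold, and by 0.93 (SE 0.06, adjusted p = 0.0038), or 1.91-fold, in BT474-Var4, under all 15 alternatives.

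The remaining inhibitors moved less. NFKBIE, which encodes IkappaB epsilon (A_23_P30655, chr6:44226558-44226617 on hg19, minus strand), was at 2.71 and 2.61 in Control, 2.72 and 2.65 in BT474-Var1, and 3.17 and 2.97 in BT474-Var4. Control and BT474-Var1 overlapped and BT474-Var4 was above both. The difference was 0.02 (adjusted p = 0.874, 95% interval -0.22 to 0.26) in BT474-Var1 and 0.41 (SE 0.09, adjusted p = 0.0387) in BT474-Var4, the latter called under 6 of 15 alternatives and lost without any one array (adjusted p 0.0616 to 0.161). NFKBIZ, a nuclear IkappaB protein that acts as a cofactor at selected promoters (A_23_P212089, chr3:101578904-101578963 on hg19, plus strand), was at -2.31 and -2.04 in Control, -2.48 and -3.01 in BT474-Var1, and -2.74 and -2.81 in BT474-Var4. All 4 variant arrays were below both Control arrays, but the spread within BT474-Var1 was wide. The differences of -0.57 (SE 0.20, adjusted p = 0.0974) and -0.60 (SE 0.20, adjusted p = 0.102) did not pass the test. Without BT474-Var1 A the first was -0.83 with an adjusted p of 0.0484, and with normexp the differences were -0.08 and -0.15. The difference in BT474-Var4 passed with trend and robust estimation (adjusted p = 0.0488) and with the compared groups alone (0.0464).

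**Figure D3:**
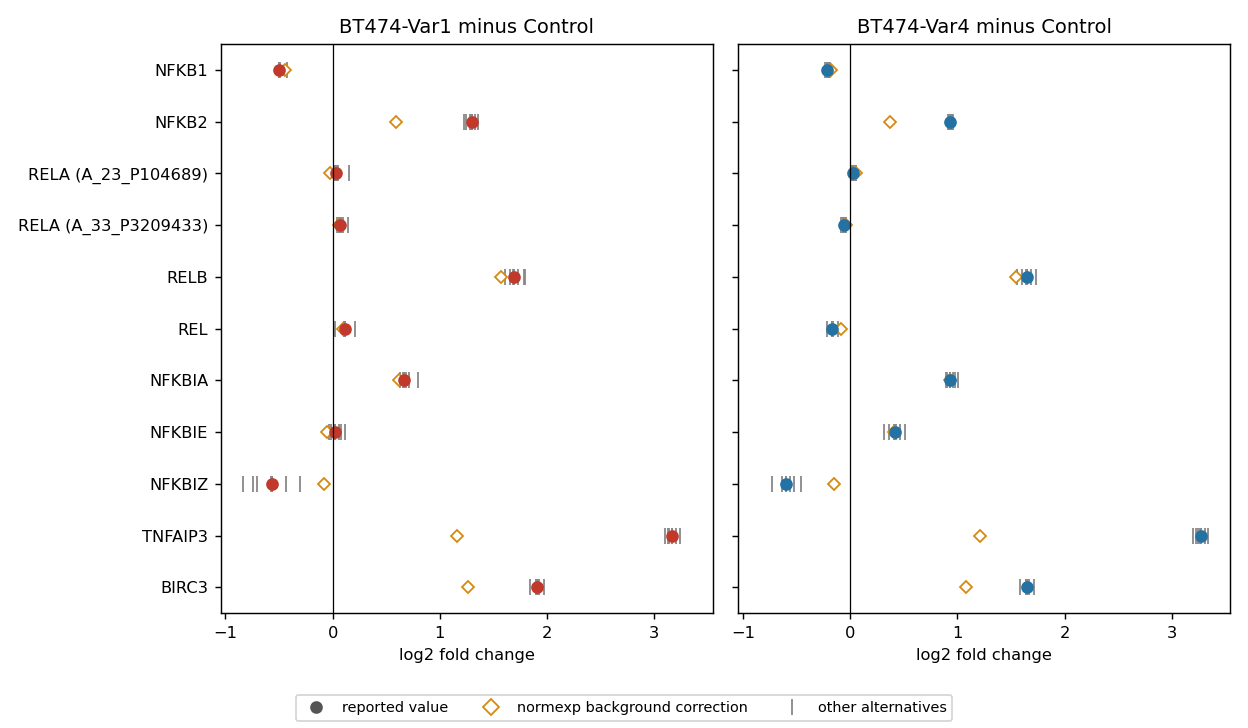
Log2 fold change (x axis) of each member probe (y axis) against Control under the reported setting (filled circles), the normexp background correction (diamonds) and the other alternatives (ticks). The normexp values of TNFAIP3 are 1.16 and 1.21 beside 3.17 and 3.27, whereas those of RELB and NFKBIA lie near the reported values.

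The 2 variant lines were also compared with each other. Of the 11 member probes, 5 were called, 3 higher and 2 lower in BT474-Var4, where 41.2% of all tested probes were called (20.5% higher and 20.8% lower), and none differed by 2-fold, a rule that called 6.87% of all tested probes. At an unadjusted p under 0.05 there were 6, and 3 passed with the analysis of variance. The arrays of the 2 variants did not overlap for 8 probes, beside 74.7% of all tested probes. NFKB1 (0.29, adjusted p = 0.0137), NFKBIA (0.26, adjusted p = 0.0254) and NFKBIE (0.39, adjusted p = 0.0291) were higher in BT474-Var4. NFKB2 (-0.37, adjusted p = 0.0129) and BIRC3 (-0.25, adjusted p = 0.0378) were lower there. No difference was found for RELB (-0.05, 95% interval -0.27 to 0.17, adjusted p = 0.670) or TNFAIP3 (0.10, 95% interval -0.10 to 0.30, adjusted p = 0.335). The 5 calls were not stable to single arrays. NFKBIA was lost without any one of the 6 arrays (adjusted p up to 0.108), NFKBIE without any one but BT474-Var4 B (up to 0.115), and BIRC3 without any one but Control B (up to 0.138). NFKB2 was lost without BT474-Var1 A or either BT474-Var4 array (up to 0.0578), and NFKB1 without either BT474-Var1 array or BT474-Var4 B (up to 0.0650). Left out in turn, the 6 arrays left between 0 and 3 calls.

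The rest of the pathway was read from lists of its parts, with 1 probe per gene, the one with the highest mean. Over all genes so represented, 34.9% were called in BT474-Var1 (14.2% higher and 20.7% lower), 24.8% in BT474-Var4 (10.2% higher and 14.6% lower) and 42% between the variants (21% higher and 21% lower). Of 23 receptors and adaptors 19 were tested. In BT474-Var1, 3 were higher and 2 lower, and in BT474-Var4, 1 was higher and 3 lower, shares of 26.3% and 21.1%. TLR3, a sensor of double-stranded RNA, went up in BT474-Var1 by 1.52 (SE 0.21, adjusted p = 0.0096), from -3.04 and -2.51 in Control to -1.29 and -1.21, and was 1.47 lower in BT474-Var4 than in BT474-Var1 (adjusted p = 0.0085). TRAF5, an adaptor of TNF receptors, fell by 0.54 (adjusted p = 0.0114) and 0.65 (adjusted p = 0.0114). The TLR3 call against Control was lost without either BT474-Var1 array (adjusted p up to 0.0528), and the TRAF5 calls without either Control array and, in BT474-Var4, without BT474-Var4 B (up to 0.0812).

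Of the 10 tested kinases, 2 were called in each variant, so that the share of 20% was below the share over all genes in both. MAP3K14 (NIK), the kinase of the non-canonical pathway, was among them in both. It was at -0.02 and -0.10 in Control, 0.34 and 0.39 in BT474-Var1, and 0.99 and 1.11 in BT474-Var4. The groups were separate and ordered, with differences of 0.43 (SE 0.07, adjusted p = 0.0135) in BT474-Var1, 1.12 (SE 0.07, adjusted p = 0.0037) in BT474-Var4, and 0.69 (adjusted p = 0.0038) between the variants. The last 2 were called under all 15 alternatives, while the first was lost without either Control or either BT474-Var1 array (adjusted p up to 0.0748). MAP3K7 (TAK1) fell by 0.31 in BT474-Var1 (adjusted p = 0.0411) and MAP3K8 rose by 0.41 in BT474-Var4 (adjusted p = 0.0203), where the other MAP3K8 probe was not called higher. MAP3K7 was lost without any one array (up to 0.160) and MAP3K8 without either Control or either BT474-Var4 array (up to 0.105).

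Among 19 tested genes for other IkappaB proteins and negative regulators, 4 were higher and 2 lower in BT474-Var1 (31.6%), and 8 were higher and 1 lower in BT474-Var4 (47.4%), with medians of 0.07 and 0.21. CYLD, a deubiquitinase that counteracts signalling, was higher by 0.73 (SE 0.11, adjusted p = 0.0112) and 0.64 (SE 0.11, adjusted p = 0.0214). TAX1BP1, a partner of A20, was higher by 0.54 in BT474-Var4 (adjusted p = 0.0058), and NFKBID, a nuclear IkappaB protein, was lower there by 0.66 (adjusted p = 0.0092). All 4 of these calls were lost without either Control array. CYLD was also lost without either BT474-Var1 array in both comparisons and without BT474-Var4 A in its own (adjusted p up to 0.106), and NFKBID without BT474-Var4 B (up to 0.0720), while TAX1BP1 reached 0.0595. None of the 5 genes of linear ubiquitin assembly and removal was called by limma in either variant. At an unadjusted p under 0.05 there were 2 in BT474-Var1 and 1 in BT474-Var4, and the analysis of variance called 1 and 0.

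Known target genes of NF-kappaB were listed separately, 41 on the array and 31 tested. In BT474-Var1, 15 were higher and 4 lower (61.3%), with a median of 0.36, and in BT474-Var4, 16 were higher and 3 lower (61.3%), with a median of 0.63. In all, 8 of the 31 were not well above background on both Control arrays. They entered the test through the variant arrays, so these counts and medians are a description. The medians were the same with the genes that have only a bound set to it. A median cannot move while such genes stay above it, so this does not check the effect of the filter. Of the other 23, 8 were higher and 4 lower in BT474-Var1, and 9 were higher and 3 lower in BT474-Var4. CCL2, a chemokine that attracts monocytes, was at -3.19 and -3.14 in Control, 1.31 and 1.32 in BT474-Var1, and 2.15 on both BT474-Var4 arrays. It rose by 4.48 (SE 0.05, adjusted p = 0.000497) and by 5.32 (SE 0.05, adjusted p = 0.000229). Its Control arrays were dim, near the level of TNFAIP3 (-3.46 and -3.60), so the size of these differences may depend on the background correction. CXCL1, a chemokine that attracts neutrophils, rose by 3.99 (adjusted p = 0.0023) and 4.73 (adjusted p = 0.0020).

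TNF, a ligand of the canonical pathway, was not well above background on either Control array. Against Control its signal was therefore a bound, at least 9.49-fold higher with variant 1 (adjusted p = 0.0034) and at least 15.1-fold higher with variant 4 (adjusted p = 0.0033). LTB (lymphotoxin beta), part of a ligand of the non-canonical pathway, was likewise at least 10.8-fold higher (adjusted p = 0.0037) and at least 5.80-fold higher (adjusted p = 0.0061). Such a bound sets the mean of the bright group against the lowest signal among probes well above background on each array of the dim group, or against the dim probe's own signal where that was higher. TNF and LTB entered the test through the variant arrays, where they are high, so their adjusted p-values are given as a description. Between the variants, PLAU (urokinase) was higher by 1.28 in BT474-Var4 (adjusted p = 0.0017) and IL6 by 2.73 (adjusted p = 0.0078). CXCL8, another neutrophil chemokine, did not rise well above background on the BT474-Var1 arrays, and the BT474-Var4 signal was at least 3.36-fold higher (adjusted p = 0.0017, likewise a description, since CXCL8 entered the test through BT474-Var4).

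**Figure D4:**
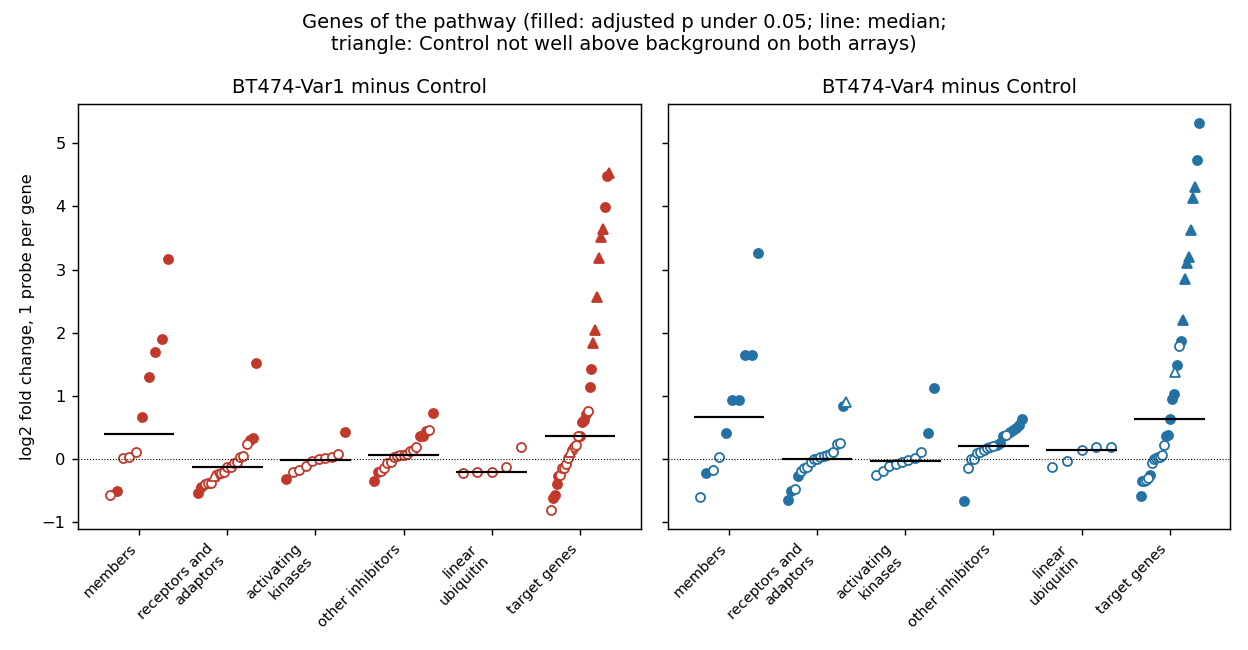
Log2 fold change against Control (y axis) for 1 probe per gene in each list of the pathway (x axis), filled where adjusted p was under 0.05, with a line at each list's median and triangles for genes that were not well above background on both Control arrays. Among target genes well above background in Control, CCL2, which was dim there, reaches 4.48 in BT474-Var1 and 5.32 in BT474-Var4. The triangles show fitted values, also where only a bound could be given. Most receptors, adaptors and kinases lie near 0.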

How the data were processed

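The authors hybridised 6 samples on Agilent 1-colour arrays and, per the file headers, extracted spots with Agilent Feature Extraction 11.5.1.1, which gave a background-subtracted processed signal intensity per spot. They also deposited a table of normalized log2 values, used here as an alternative. The arrays' own design number differed from that in the methods; gene names and hg19 probe positions were taken from the files.

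Here, outlier spots were left out, spots of a probe averaged, and the array's 75th percentile subtracted from the log2 intensity (75th-percentile shift). Probes well above background on 2 arrays of at least 1 group, with a value on every array, were tested with limma 3.58.1 in R 4.3.3 (group means over 6 arrays, 3 residual degrees of freedom) with Benjamini-Hochberg adjustment at 0.05. The methods' test was an analysis of variance. It was run as an alternative by pairwise contrasts on its pooled residual variance, without moderation and with no overall test of the groups. Figures were drawn with matplotlib 3.10.9. The 6 arrays lay on 1 slide, the BT474-Var1 arrays in a slide column of their own, so that position and BT474-Var1 cannot be told apart.

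All 11 member probes are named, and from each other list up to 4 genes per comparison with the largest change among those called, of which the text gives those with the clearest role. The members and lists were chosen with earlier results of these data known. On simulated data with 200 of 31806 probes shifted by 2 log2 units, limma found 82% of them in BT474-Var1 minus Control with 9 false calls. In the real data 34.4% of the tested probes were called in that comparison, and the median absolute log2 fold change was 0.26. The 82% therefore does not give the sensitivity in these data, nor that for smaller differences. Array number limits the precision. The 15 alternatives were the background correction, normalization, 2 filters, the authors' table, the replicate block, trend and robust estimation, the analysis of variance, the compared groups alone and the 6 arrays left out in turn, with a 2-fold minimum for counts.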

Additional observations from a re-analysis of the deposited data

How the results depend on the processing

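Of 165 values of member probes per comparison under the 15 alternatives, 162 stayed on their side of the threshold in BT474-Var1 minus Control, 144 in BT474-Var4 minus Control and 130 in BT474-Var4 minus BT474-Var1, and no called value reversed. Among these, 4, 0 and 7 values that were not called changed sign. In BT474-Var4 minus Control, 3 probes were called with the 2-fold minimum in place of 7. In BT474-Var4 minus BT474-Var1, 5 became 3 with the analysis of variance, 0 with no filter on dim probes (5 at an unadjusted p under 0.05 in limma, and 3 by the analysis of variance) and 0 with the 2-fold minimum. Leaving out each array in turn gave 0 to 3 there, 5 to 7 in BT474-Var1 minus Control and 5 each time in BT474-Var4 minus Control. The cause of these changes was not tested, apart from the fewer arrays and the stricter or larger sets by construction. With the replicate letter as a replicate block, 6, 6 and 4 member probes were called. The letters did not pair the arrays (correlations of -0.01, 0.05 and -0.02 between A minus B differences of 2 groups). Over all probes, calls fell from 10953, 7701 and 13108 to 2669, 720 and 5117 with no filter on dim probes and to 8742, 4901 and 11141 with the block. Signals near background limit the size of the TNFAIP3, NFKB2 and NFKBIZ differences, and of the CCL2 differences among the target genes.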
